A study of Mus musculus with 16 samples.

Results

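Interferon-stimulated genes are the genes that a cell switches on after an interferon has bound its receptor. The set described here names 36 genes by symbol, and 34 of them were measured, each by the probe set with the highest mean over 16 arrays among those annotated to that gene alone. These 34 were part of 18193 genes represented in this way. Isg15, which encodes a ubiquitin-like modifier, and Ifi44 had no probe set of their own and were not analysed here. The arrays, Affymetrix Mouse Genome 430 2.0, each held the RNA of 1 left lung of a Balb/c mouse taken at 23 weeks of age. The 4 groups, of 4 mice each, were females that met second-hand smoke (SHS) in utero, females that met filtered air, SHS males and air males. SHS was modelled by sidestream smoke at 10 mg/m3 of suspended particles, and the exposure lasted 5 h daily, 7 days per week. All 4 groups received the allergen ovalbumin, injected at 19 and 21 weeks and inhaled in weeks 22 and 23, so no lung without allergen was compared. No source used here gives the litter or mother of a mouse.

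Interferons act through 2 main routes. Type I interferons activate a complex that includes Stat2 and Irf9 and binds the interferon-stimulated response element (ISRE) in promoters, and interferon gamma, made by T cells and natural killer cells, acts on promoters through the GAS element. The induced proteins block viral replication, sense viral nucleic acid, attract T cells, present antigen, and shut the signal down again. In the allergic lung these genes are commonly read as the counterpart of the type 2 response that ovalbumin evokes.

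The promoters of the set were read from RefSeq (GRCm38.p6) in windows of 250 bases before to 50 bases after each annotated start, which the table gave for 28 of the 36 genes. Mx1, Mx2, Oas2, Usp18, Ifi27l2a, Rtp4, Parp14 and Zbp1 were the others. Both strands were searched for the core of the ISRE, written as GAAA, any 2 bases and GAAA again, with overlapping matches counted, and for TTCNNNGAA, the GAS form, which reads the same on both strands. An ISRE core stood in 15 of these 28 genes and in 3.99% of all 27025 genes with a window, and a TTCNNNGAA match in 6 of 28 and in 9.55% of all. Upstream stretches are shown for 3 genes whose level differed between SHS and air lungs in at least 1 comparison given further on (Socs1, Bst2, Oas1a) and for 3 that did not (Ifit1, Gbp2, Cxcl10). They are written 5′ to 3′ on the strand of the gene, and capitals mark the match or its complement.
Socs1 (chr16:10785584-10785639, minus strand): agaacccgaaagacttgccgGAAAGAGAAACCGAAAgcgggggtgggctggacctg
Bst2 (chr8:71537567-71537622, minus strand): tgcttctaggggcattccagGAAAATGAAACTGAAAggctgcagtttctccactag
Oas1a (chr5:120907526-120907565, minus strand): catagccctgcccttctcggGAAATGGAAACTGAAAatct
Ifit1 (chr19:34640765-34640833, plus strand): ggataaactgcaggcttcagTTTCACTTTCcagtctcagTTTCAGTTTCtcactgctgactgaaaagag
Gbp2 (chr3:142620584-142620633, plus strand): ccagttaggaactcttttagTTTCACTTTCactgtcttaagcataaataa
Cxcl10 (chr5:92349073-92349122, minus strand): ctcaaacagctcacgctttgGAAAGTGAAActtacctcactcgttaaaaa
Socs1, Bst2, Oas1a and Ifit1 each carried 2 matches, and in the first 3 of these the matches overlapped. A match was present in 4 of 4 members with a window that passed the test in some comparison and in 10 of 22 that did not. Mx1, Zbp1 and Ifi27l2a also passed but had no window, and Stat4 had its match at its second annotated start only. A link between a match and the difference after SHS was not tested.

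Values are log2 intensities as the authors deposited them, so a difference of 1 is a 2-fold change. Lung markers bore out the tissue, with the median of 10 of them (surfactant, club cell, alveolar and endothelial genes) between 13.59 and 14.11 on every array, near the top of the scale. Correlation over probe sets was 0.990 to 0.998 within a sex and 0.959 to 0.974 between the sexes, so female and male levels were not set against each other. SHS female replicate 4 stood nearer to the air females (mean correlation 0.995) than to the other SHS females (0.992). Each comparison below is SHS minus air within 1 sex, the average of these 2 effects, or the difference between them, from limma over 45037 probe sets. A gene is said to have risen or fallen where p adjusted by the Benjamini-Hochberg method was under 0.05.

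By median difference the set as a whole moved little. In females 2 of 34 members rose and none fell (5.88%), where 3.97% of all genes passed the test, 3.29% upward and 0.676% downward. They were Socs1, a brake on interferon signalling, and Stat4, the transducer of interleukin 12. In males 3 of 34 rose and none fell (8.82%), where 6.63% of all genes passed, 4.17% upward and 2.47% downward. These were Socs1, the antiviral gene Mx1 and Ifi27l2a, a small interferon-induced membrane protein. In the effect averaged over the sexes 6 of 34 rose and none fell (17.6%), where 13.5% of all genes passed, 9.2% upward and 4.32% downward, and the 6 were Socs1, Mx1, Stat4, Zbp1, Bst2 and Oas1a. At this adjusted threshold the shares lay close to those of all genes, so the counts are no result about the members as a list. The median log2 difference of the 34 was 0.07 in females, 0.15 in males and 0.10 in the average, against 0.00, 0.01 and 0.00 for all genes. With quantile normalization the female median was 0.03. An unadjusted p under 0.05 was reached by 8 of 34 members in females, where 19.5% of all genes reached it. In males 17 of 34 did (22.7% of all genes) and in the average 15 of 34 (27.7%), larger shares than of all genes.

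**Figure D1:**
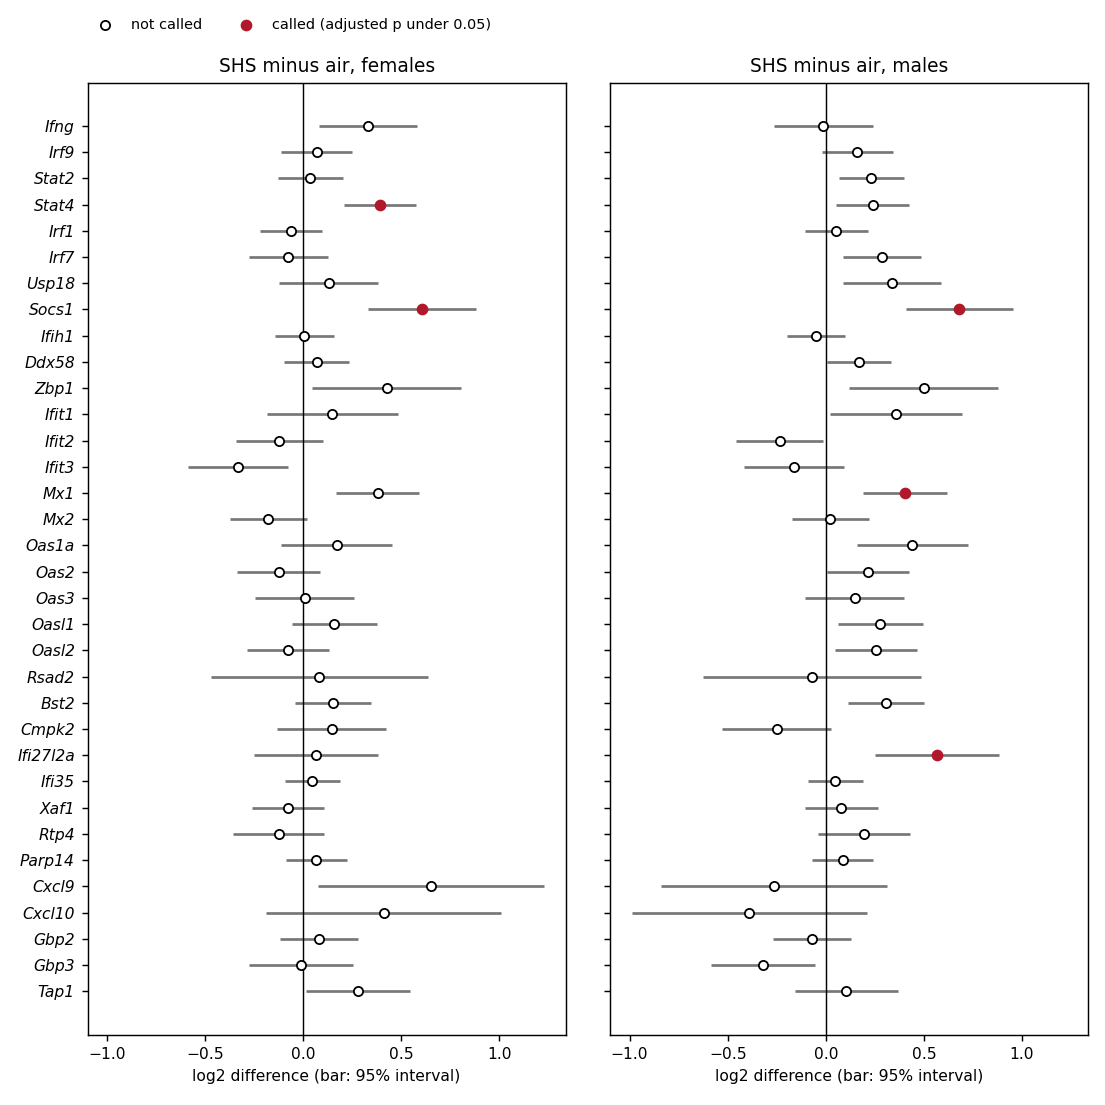
Log2 difference, SHS minus air, of each of the 34 members in females (left) and males (right), with bars for the 95% interval of the limma fit and filled points for members that passed the test. Filled are Stat4 and Socs1 in females and Socs1, Mx1 and Ifi27l2a in males. The bars of Cxcl9, Cxcl10 and Rsad2 are the widest.

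The precision of the arrays bounded what could have been missed. The 95% interval of the difference lay wholly within 2-fold in either direction for 32 of 34 members in females, all but Cxcl9 and Cxcl10, and for 34 of 34 in males. It lay within 1.5-fold for 27 members in females and 23 in males. Of all 18193 genes it did so for 17010 in females and 16935 in males, a larger share than of the members. The 4 SHS values did not overlap the 4 air values for 3 of 34 members in females, 2 higher and 1 lower. In females this held for 10.4% of all 18193 genes, 1409 higher and 483 lower. In males it held for 7 of 34 members, all higher, and for 19.1% of all genes, 1919 higher and 1551 lower. No member passed the test for a difference between the effects in females and males by limma, nor did any of the 18193 genes (0.0%). At an unadjusted p under 0.05 this difference was reached by 6 of 34 members and by 8.27% of all genes.

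Of the 2 feedback inhibitors among the members, Socs1 rose in both sexes and Usp18 did not pass. Socs1 binds Janus kinases and blocks them, and it is itself induced by interferon gamma and by other cytokines. Its log2 values were 7.91, 7.92, 7.58 and 7.39 in SHS females, against 6.98, 7.00, 7.03 and 7.38 in air females. The lowest SHS female, replicate 4, lay 1 hundredth above the highest air female, also numbered 4, and the other lungs of the 2 groups were well apart. In males Socs1 measured 7.11, 6.99, 7.04 and 6.81 after SHS, against 6.44, 6.55, 6.11 and 6.12 after air, with no overlap. Socs1 was 1.52-fold higher in SHS females, by 0.61 ± 0.13 on the log2 scale (model SE, 4 lungs a group, adjusted p = 0.0156 from limma). It was 1.60-fold higher in SHS males (0.68 ± 0.13, adjusted p = 0.00558), and the averaged difference was 0.64 ± 0.09 (adjusted p = 0.000209). The male and averaged calls were made in 16 of 16 fits that each left out 1 array. The female call was made in 12 of them and was lost without SHS female replicate 1 (adjusted p = 0.0665) or 2 (0.0623) and without air female replicate 2 (0.0567) or 3 (0.0553). Usp18, a protease that removes Isg15 and blocks the type I receptor, had differences of 0.13 in females (adjusted p = 0.662) and 0.34 in males (adjusted p = 0.114). Its averaged difference of 0.23 passed without SHS male replicate 4 (0.28, adjusted p = 0.0388).

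**Figure D2:**
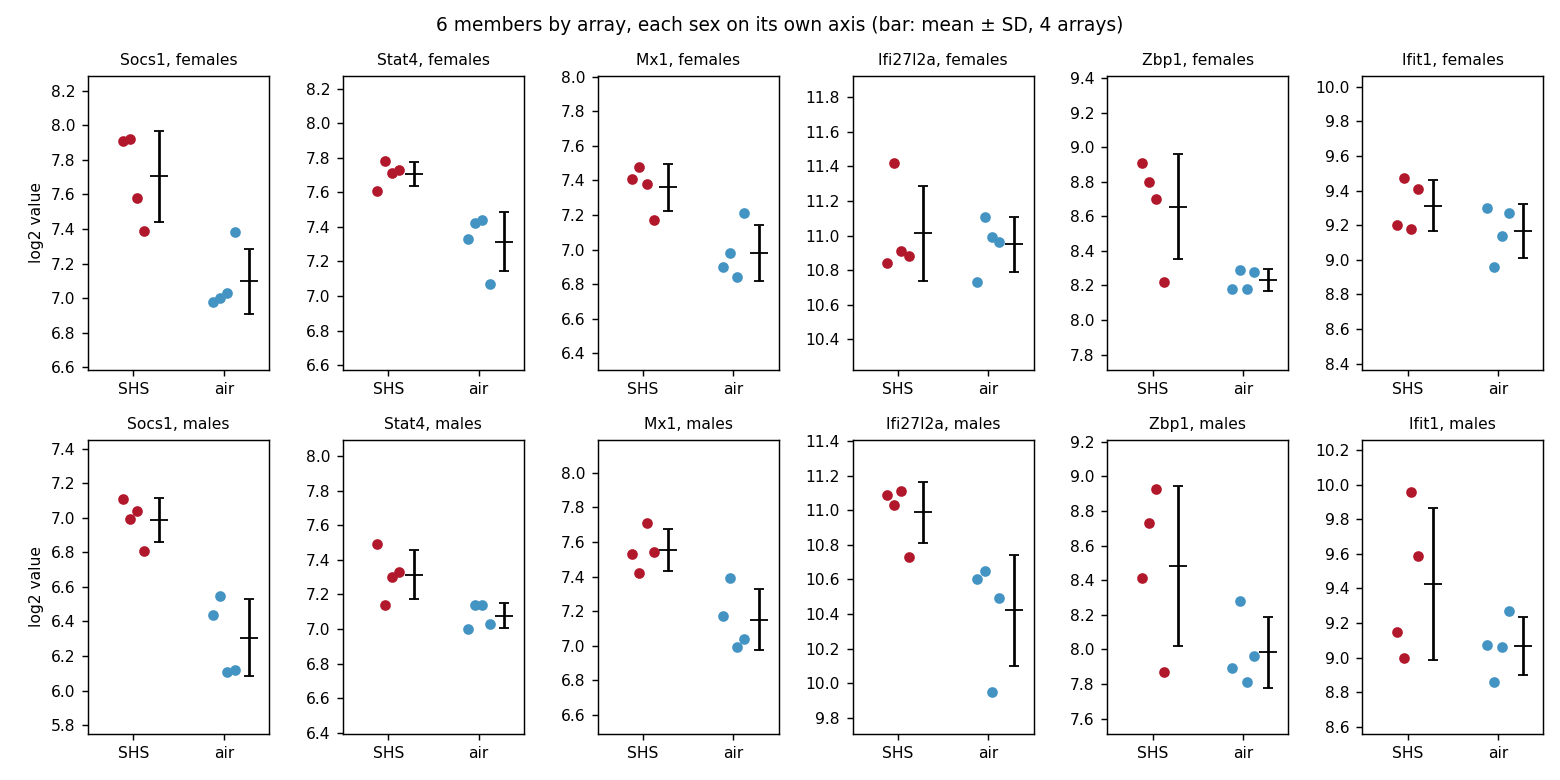
Log2 values of 6 members on each array, females above and males below, with SHS left of air in each panel, points for single lungs and bars for mean ± SD of 4. Panels span the same range of log2 units but are centred on their own values. SHS and air points are apart for Socs1 in both sexes, for Stat4 in females and for Mx1 and Ifi27l2a in males, and they overlap for Ifit1.

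The ligand in the set, Ifng, encodes interferon gamma and was among the dimmest members. It measured 5.44, 5.30, 5.55 and 5.22 in SHS females, against 5.25, 5.14, 5.06 and 4.74 in air females, so the highest air female exceeded the lowest SHS female. The female difference of 0.33 ± 0.12 did not pass (adjusted p = 0.159, and 0.0264 with array weights), and the male one was -0.01 ± 0.12 (adjusted p = 0.969).

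Of the signal transducers, Stat4 carries interleukin 12 signals that lead T cells and natural killer cells to make interferon gamma. Its values were 7.61, 7.78, 7.71 and 7.73 in SHS females, against 7.33, 7.42, 7.44 and 7.07 in air females. Every SHS female lay above every air female. The difference was 0.39 ± 0.09, a 1.31-fold rise (adjusted p = 0.0200), lost without air female replicate 4 (0.0706), SHS female replicate 2 (0.0669) or SHS female replicate 3 (0.0554). In males it was 0.24 ± 0.09 (adjusted p = 0.13), and the averaged rise was 0.31 ± 0.06 (adjusted p = 0.00311), called in 16 of 16 fits with 1 array left out. With the female arrays fitted alone, the female adjusted p was 0.0748 for Stat4 and 0.0584 for Socs1. In whole lung, more cells of a type and more RNA per cell cannot be told apart. Of 11 markers of T cells and Th1 cells 2 rose in females (3.97% of all genes passed), the CD8 chain Cd8b1 at 0.40 and the chemokine receptor Cxcr3 at 0.36 (adjusted p = 0.0304 and 0.0303). These calls were made in 11 and 10 of 16 fits with 1 array left out. The female difference was positive for 8 of the 11 markers and negative for 3, with a median of 0.17. By level, the median of these 11 ran from 7.06 to 7.39 over SHS females, against 6.72 to 6.82 over air females. In males it ran from 6.83 to 7.09 after SHS, against 6.75 to 7.10 after air. Taken relative to the air mean of each gene, the female medians overlapped, at 0.05 to 0.30 after SHS and -0.05 to 0.06 after air. Among other cell markers in females, 1 of 7 of B cells rose (Fcer2a at 1.03) and 1 of 9 of monocytes and macrophages (Mrc1 at 0.72). Of the cell cycle 9 of 9 rose (median 1.18), and 0 of 9 of natural killer and cytotoxic cells and 0 of 7 of neutrophils passed. Median female differences were 0.30 for B cells and 0.27 for neutrophils. They were 0.15 for monocytes and macrophages and 0.15 for natural killer and cytotoxic cells. The part of these cells in the Stat4 result was not tested.

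Stat2 and Irf9, which belong to the complex that type I interferons activate, did not pass. Stat2 measured 8.02, 7.92, 8.13 and 8.04 in SHS males, against 7.79, 7.88, 7.61 and 7.90 in air males, just without overlap, at 0.23 ± 0.08 (adjusted p = 0.0976). In females its difference was 0.04 (adjusted p = 0.881). Irf9 had differences of 0.07 in females and 0.16 in males (adjusted p = 0.766 and 0.314).

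The transcription factors Irf7, the amplifier of type I interferon production, and Irf1, a first-line target of interferon gamma, did not pass either. Irf7 measured 7.92, 7.91, 8.11 and 7.79 in SHS males, against 7.69, 7.59, 7.62 and 7.69 in air males, a gap of 0.29 ± 0.10 without overlap (adjusted p = 0.0906, and 0.0448 without SHS female replicate 3). In females its groups overlapped, with a difference of -0.08 (adjusted p = 0.766), and the difference between the effects was -0.36 ± 0.13 (adjusted p = 0.521). Irf1 lay between 11.18 and 11.48 on all 16 arrays, with differences of -0.06 in females (adjusted p = 0.767) and 0.05 in males (adjusted p = 0.752).

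Of the 13 antiviral effectors 0 passed in females by limma, 1 rose in males and 3 rose in the average. An unadjusted p under 0.05 was reached by 2 of the 13 in females, where 19.5% of all genes reached it. In males 8 of 13 did (22.7% of all genes) and in the average 7 of 13 (27.7%), larger shares than of all genes. SHS male replicate 3 was the highest of its group for 11 of the 13. Differences were positive for 8 of 13 in females and 9 of 13 in males. Their medians were 0.08, 0.21 and 0.08. The member that rose in males was Mx1, a GTPase that traps influenza virus and of which Balb/c mice, like most inbred laboratory strains, carry a defective allele. No source used here says where its probes lie relative to that defect. Mx1 measured 7.53, 7.42, 7.71 and 7.54 in SHS males, against 7.17, 7.39, 6.99 and 7.04 in air males, without overlap (0.40 ± 0.10, adjusted p = 0.0274). The male call was lost without SHS male replicate 1 (0.0635) or 3 (0.1) and without air male replicate 1 (0.0593), 3 (0.0917) or 4 (0.0687). SHS females had 7.41, 7.48, 7.38 and 7.17, against 6.90, 6.98, 6.84 and 7.21 in air females, where air replicate 4 lay above SHS replicate 4 (0.38 ± 0.10, adjusted p = 0.0513). Mx1 was called in females without SHS female replicate 4 (0.44, adjusted p = 0.0135), air female replicate 4 (0.45, 0.0308) or air male replicate 2 (0.0372), and with dim probe sets left out (0.0309). The averaged rise of 0.39 ± 0.07 (adjusted p = 0.00174) was called in 16 of 16 fits with 1 array left out. Its neighbour Mx2 had differences of -0.18 in females (adjusted p = 0.368) and 0.02 in males (adjusted p = 0.928).

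Oligoadenylate synthetases activate RNase L on sensing double-stranded RNA, and Ifit proteins bind foreign RNA. None of the set's members from either family passed within a sex. The synthetase Oas1c, which is not a member, fell in males and is given further on. Oas1a measured 9.63, 9.59, 10.05 and 9.59 in SHS males, against 9.32, 9.37, 9.12 and 9.29 in air males, with replicate 3 highest (0.44 ± 0.13, adjusted p = 0.0654, and 0.0172 without SHS female replicate 2). Its averaged rise of 0.31 ± 0.09 (adjusted p = 0.0478) was called in 4 of 16 fits with 1 array left out, those without air female replicate 2, SHS female replicate 3 or 4 or SHS male replicate 4. In the other fits the adjusted p ran up to 0.102, the value without SHS male replicate 3. The call was also lost with quantile normalization (0.0747) and with arrays centred on their medians (0.0585). Oas2, Oas3, Oasl1 and Oasl2 had differences of -0.12, 0.01, 0.16 and -0.08 in females and of 0.21, 0.15, 0.28 and 0.26 in males, with adjusted p from 0.129 to 0.987. Ifit1 measured 9.15, 9.0, 9.96 and 9.59 in SHS males, against 9.07, 8.86, 9.06 and 9.27 in air males. SHS male replicates 3 and 4 lay above all air males and the other two SHS males among them (0.36 ± 0.16, adjusted p = 0.213), and the female difference was 0.15 (adjusted p = 0.717).

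Ifit3 was the one member with all SHS females below all air females, at 9.66, 9.68, 9.53 and 9.84 in SHS females, against 9.95, 10.09, 10.12 and 9.87 in air females. The difference of -0.33 ± 0.12 did not pass (adjusted p = 0.167), and its averaged difference was -0.25 ± 0.09 (adjusted p = 0.0784). Without SHS male replicate 3 the averaged difference was -0.31 (adjusted p = 0.0107), and without SHS female replicate 4 it was -0.27 (adjusted p = 0.0448). Ifit3 has a near-identical neighbour gene, Ifit3b, so its probes may read both. Ifit2 had differences of -0.12 in females and -0.24 in males (adjusted p = 0.636 and 0.212), and its averaged difference passed without SHS female replicate 4 (-0.24, adjusted p = 0.0114).

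Bst2 encodes tetherin, which holds budding virus particles at the cell surface. It measured 9.46, 9.46, 9.61 and 9.21 in SHS males, against 9.11, 9.28, 9.12 and 9.0 in air males, and 9.39, 9.47, 9.18 and 9.27 in SHS females, against 9.05, 9.26, 9.12 and 9.26 in air females. All 4 SHS lungs of each sex lay above the air mean, but the groups overlapped in both. The averaged rise was 0.23 ± 0.07 (adjusted p = 0.0298). It was called in 6 of 16 fits with 1 array left out, those without air female replicate 2 or 4, air male replicate 2, SHS female replicate 3 or 4 or SHS male replicate 4, and the highest adjusted p of the others was 0.0704, without SHS male replicate 3. The male difference of 0.31 (adjusted p = 0.0598) passed without SHS male replicate 4 (0.39, 0.0207) or air male replicate 2 (0.36, 0.0454). With quantile normalization its adjusted p was 0.0543.

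Rsad2 (viperin) and its neighbour Cmpk2 make or feed antiviral nucleotides, and they varied mostly within groups. Rsad2 ranged from 8.51 to 9.69 in SHS females, against 8.56 to 9.56 in air females, and from 8.80 to 9.56 in SHS males, against 8.63 to 9.67 in air males. Its differences were 0.08 and -0.07 (adjusted p = 0.924 and 0.918). Cmpk2 had differences of 0.14 in females and -0.25 in males (adjusted p = 0.659 and 0.304).

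Among the nucleic acid sensors, Zbp1, which binds left-handed double-stranded nucleic acid and triggers necroptosis, rose in the average alone. It measured 8.91, 8.80, 8.70 and 8.22 in SHS females, against 8.18, 8.29, 8.18 and 8.28 in air females, and 8.41, 8.73, 8.93 and 7.87 in SHS males, against 7.89, 8.28, 7.81 and 7.96 in air males. In each sex 3 SHS lungs lay above every air lung, and replicate 4 lay among the air values. The differences were 0.42 ± 0.18 in females (adjusted p = 0.245), 0.50 ± 0.18 in males (adjusted p = 0.121) and 0.46 ± 0.13 in the average (adjusted p = 0.0268). The averaged call was made in 9 of 16 fits with 1 array left out, and lost without SHS female replicate 1 (0.061) or 2 (0.0546), SHS male replicate 2 (0.0603) or 3 (0.0585), air female replicate 3 (0.0519) and air male replicate 1 (0.0515) or 3 (0.0566). Without SHS male replicate 4 the male difference was 0.70 (adjusted p = 0.0133). Without both SHS arrays numbered 4, a choice made after seeing the data, the adjusted p was 0.00658 in females and 0.00214 in males. With the mean of both Zbp1 probe sets in place of the brighter one, the averaged difference was 0.31 (adjusted p = 0.0735). The RNA helicases Ifih1 (MDA5) and Ddx58 (RIG-I), which signal through Mavs, had differences of 0.01 and 0.07 in females and -0.05 and 0.17 in males, with adjusted p from 0.235 to 0.98.

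**Figure D3:**
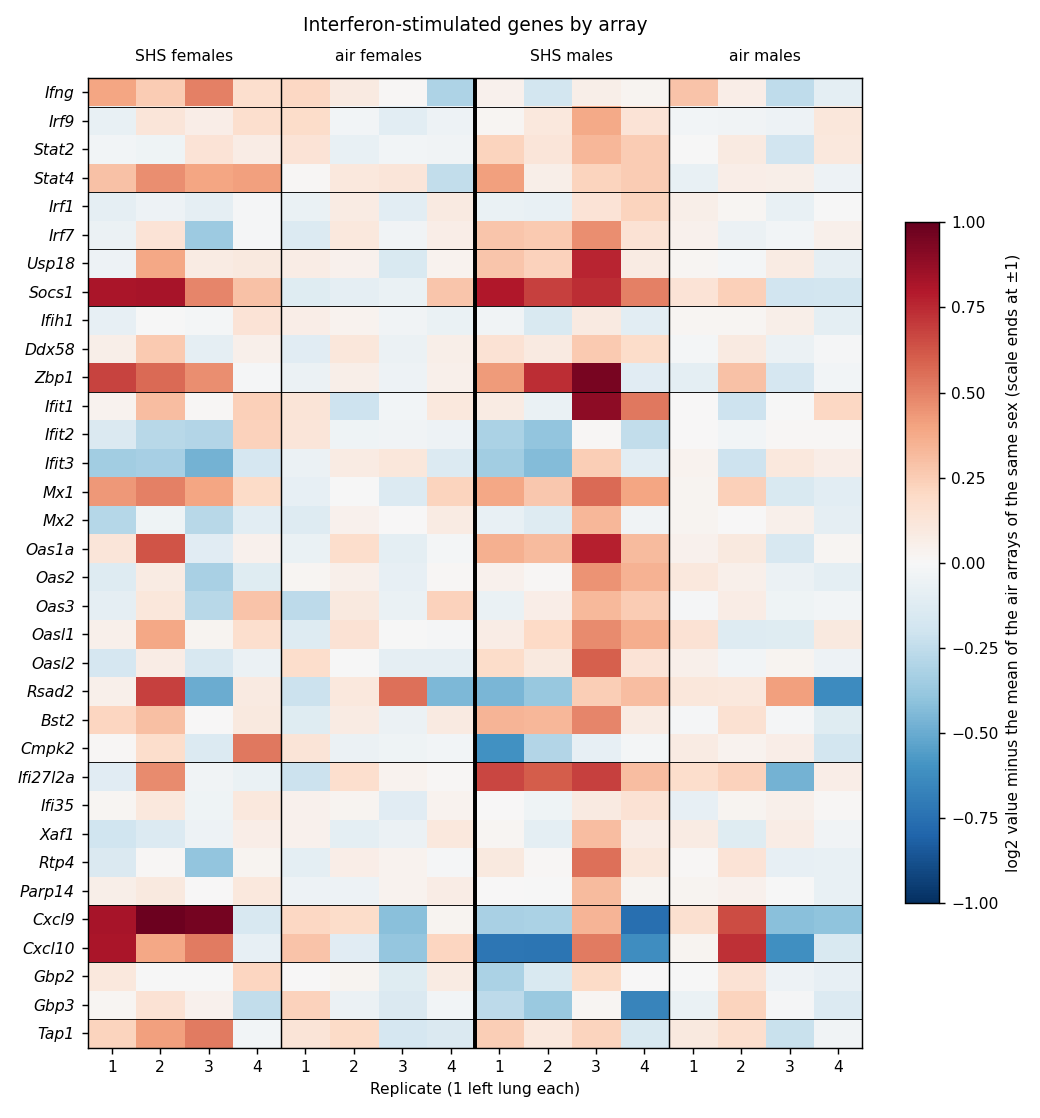
Each of the 34 members (rows, grouped by role) on each of the 16 arrays (columns), as the log2 value minus the mean of the air arrays of the same sex, red where higher and blue where lower. The Socs1 row is red on all 8 SHS arrays. The column of SHS male replicate 3 is red in nearly every row, and Cxcl9 is red on SHS female replicates 1 to 3.

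Of the 5 other induced genes, Ifi27l2a rose in males and was not called in females. Its values were 11.09, 11.03, 11.11 and 10.73 in SHS males, against 10.60, 10.65, 9.95 and 10.49 in air males. The groups did not overlap, and air male replicate 3 lay far below the rest. The rise was 1.48-fold, a difference of 0.57 ± 0.15 (adjusted p = 0.0356). It was lost without air male replicate 3 (0.111) or 4 (0.0553) and without SHS male replicate 1 (0.0975), 2 (0.0841) or 3 (0.106). In females the difference was 0.06 ± 0.15 (adjusted p = 0.89), and the difference between the 2 effects, -0.50 ± 0.21, did not pass (adjusted p = 0.568). Ifi35, Xaf1, Rtp4 and Parp14 had differences between -0.13 and 0.19 in either sex and did not pass.

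The chemokines Cxcl9 and Cxcl10, induced by interferon gamma, draw T cells that carry Cxcr3. Cxcl9 measured 9.20, 9.36, 9.33 and 8.22 in SHS females, against 8.58, 8.56, 7.96 and 8.40 in air females, so 3 SHS females lay above all air females and replicate 4 below 3 of them. The difference was 0.65 ± 0.27 (adjusted p = 0.238), and without SHS female replicate 4 it was 0.92 (adjusted p = 0.0281). In males Cxcl9 measured 8.76, 8.77, 9.43 and 8.34 after SHS, against 9.25, 9.74, 8.67 and 8.69 after air, a difference of -0.26 ± 0.27 (adjusted p = 0.648). The difference between the effects was 0.92 ± 0.39 (adjusted p = 0.568). Cxcl10 ran the same way, at 0.41 ± 0.28 in females and -0.39 ± 0.28 in males (adjusted p = 0.532 and 0.485). Its values were 7.87, 7.86, 9.11 and 7.97 in SHS males, against 8.62, 9.32, 7.98 and 8.44 in air males, so SHS replicate 3 lay among the air males and the other SHS males below them all. Cxcr3 rose in females, as given above, and had a difference of -0.25 in males (adjusted p = 0.104, and 0.028 without air male replicate 4).

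Guanylate-binding proteins are GTPases that attack the vacuoles of intracellular parasites. The members among them, Gbp2 and Gbp3, did not pass, and neither did the peptide transporter Tap1. Gbp7, which is not a member, is given further on. Gbp3 had differences of -0.01 in females and -0.32 in males (adjusted p = 0.982 and 0.158), and Gbp2 of 0.08 and -0.07 (adjusted p = 0.75 and 0.744). The Gbp2 probe set is of a type that can match several genes of a family. Tap1 measured 9.32, 9.51, 9.62 and 9.07 in SHS females, against 9.23, 9.29, 8.93 and 8.95 in air females (0.28 ± 0.13, adjusted p = 0.277).

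A second probe set or more existed for 12 of the 34 members, 17 in all. The sign of the difference was that of the chosen probe set for 12 of the 17 in females and 13 in males. None of the 12 members was called within a sex, either by the chosen probe set or with its probe sets averaged. The members called within a sex had 1 probe set each, so averaging could not check those calls. Zbp1, the one of the 12 called in the average, lost that call with its probe sets averaged (adjusted p = 0.0735 by limma).

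The members also differed between lungs of 1 group. SHS male replicate 3 held the highest value of its group for 27 of 34 members, where the same array was highest for 20.7% of all genes. On it 33 of 34 members lay above the mean of air males, with a median of 0.33, and 11 of the 13 antiviral effectors were highest, with a median of 0.45. The other SHS males had member medians of 0.05, 0.01 and 0.12. SHS female replicate 2 was highest for 18 of 34 members, where it was highest for 31.2% of all genes, with a member median of 0.16. Lungs of the air groups differed as well. Air male replicate 2 was highest for 16 of 34 members, where it was highest for 22.9% of all genes, with a member median of 0.06. The median of all genes lay between -0.03 and 0.02 on each of the 16 arrays. Without SHS male replicate 3, 1 member was called in males, Socs1, and the male median was 0.08. Without SHS female replicate 2, none was called in females by limma, and the female median was 0.04.

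**Figure D4:**
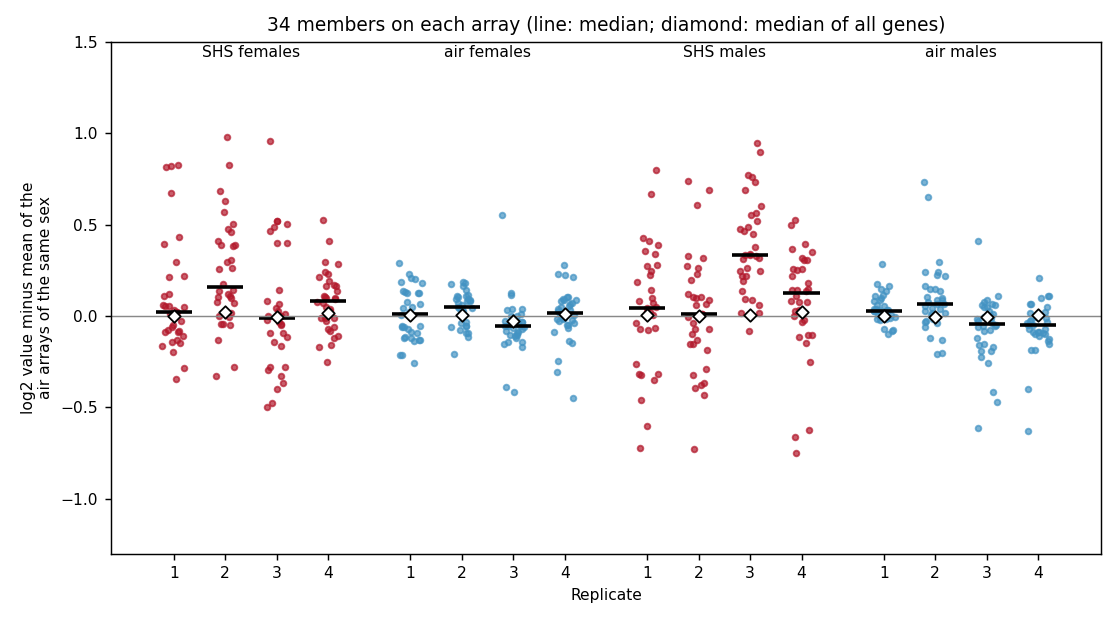
The 34 members on each array as log2 value minus the mean of the air arrays of the same sex (points), with a line at their median and a diamond at the median of all genes. The line of SHS male replicate 3 stands at 0.33, above those of the other 15 arrays, while its diamond is at 0.00.

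Other induced genes, listed with earlier results of these data known, were also high on SHS male replicate 3. It was highest of its group for 25 of 47 further interferon-stimulated genes, 20 of 32 interferon gamma GTPase and antigen presentation genes, 7 of 15 induction genes, 4 of 18 receptors and signalling genes and 0 of 12 interferon and interferon-inducing cytokine genes. Among cell type markers it was highest for 2 of 11 of T and Th1 cells, 2 of 9 of monocytes and macrophages, 1 of 9 of natural killer and cytotoxic cells, 1 of 7 of plasmacytoid dendritic cells, 1 of 7 of neutrophils, 0 of 7 of B cells, 0 of 5 of eosinophils and 0 of 10 of lung, and it was highest for 4 of 9 cell cycle genes. The median of the T and Th1 markers on it was -0.04 relative to air males, and that of 9 cell cycle genes was 1.14, against 0.69 to 1.18 on the other SHS males. The part of these cells in the members' values was not tested. Air male replicate 2 was highest of its group for 18 of the 32 GTPase and antigen presentation genes and for 12 of the 47 further interferon-stimulated genes.

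In the rest of the pathway, the list of ligands and inducing cytokines held 0 of 12 calls in either sex by limma. Of all genes 3.97% passed in females and 6.63% in males. An unadjusted p under 0.05 was reached by 2 of the 12 in females (19.5% of all genes) and 1 of the 12 in males (22.7% of all genes). Ifnb1, the first type I interferon made on infection, had differences of -0.08 and -0.05 in females and males. Il18, a cytokine that induces interferon gamma, fell in the average, by 0.66 ± 0.16 (adjusted p = 0.0149). Its female and male differences, -0.65 and -0.66, passed without SHS female replicate 4, at -1.0 (4.35e-05) and -0.66 (0.00121). Of 18 receptors and signalling genes 2 rose in females, 2 in males and 2 in the average. This was 11.1% each time, where 3.97%, 6.63% and 13.5% of all genes passed. The interferon receptor genes Ifnar1, Ifnar2, Ifngr1 and Ifngr2 and the kinases Jak1, Jak2 and Tyk2 did not pass in either sex. Those that rose were the inhibitors Socs3 and Ptpn2 in females and in the average, and Socs3 and Stat3, which Socs3 restrains, in males. The male rise of Stat3, 0.24 (adjusted p = 0.0368), was called in 8 of 16 fits with 1 array left out and was lost with the male arrays alone (0.051) and with its probe sets averaged (0.0927).

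Socs3 measured 10.69, 10.69, 11.00 and 10.68 in SHS males, against 10.02, 10.04, 9.97 and 9.99 in air males, and 9.73, 9.98, 9.72 and 9.46 in SHS females, against 9.07, 9.18, 9.36 and 9.43 in air females. The groups did not overlap in either sex (0.76 ± 0.11 in males, adjusted p = 0.000623, and 0.46 ± 0.11 in females, adjusted p = 0.0219). Ptpn2, a phosphatase that inactivates Janus kinases, differed by 0.37 ± 0.09 in females (adjusted p = 0.0281) and 0.29 ± 0.09 in males (adjusted p = 0.0643). The female calls were made in 11 (Socs3) and 12 (Ptpn2) of 16 fits with 1 array left out, with adjusted p up to 0.0793 and 0.105. The female call of Ptpn2 was also lost with quantile normalization (0.0681), and its male difference passed without SHS female replicate 4 (0.0284) or air female replicate 2 (0.0498). Like Socs1, both inhibitors had all SHS values above all air values in each sex.

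Of 15 genes of interferon induction 1 rose in females (6.67%, where 3.97% of all genes passed). In males 2 rose and 1 fell, a larger share than the 6.63% of all genes that passed. In the average 4 rose and 1 fell (33.3%, where 13.5% of all genes passed). Sting1, the adaptor for cytosolic DNA sensing, measured 9.97, 10.03, 10.04 and 9.47 in SHS females, against 9.35, 9.34, 9.22 and 9.40 in air females. It measured 9.39, 9.38, 9.18 and 9.12 in SHS males, against 8.91, 8.68, 8.42 and 8.83 in air males. The groups were apart in both sexes, at 0.55 ± 0.12 in females (adjusted p = 0.0187) and 0.56 ± 0.12 in males (adjusted p = 0.0131). The female call was made in 11 of 16 fits with 1 array left out and the male call in 15, being lost without air male replicate 3 (0.0516). Myd88, the adaptor of most Toll-like receptors, rose in males by 0.30 (adjusted p = 0.0300), called in 10 of 16 such fits and lost with the male arrays alone (0.0595). Tlr7, the endosomal sensor of single-stranded RNA, fell in males. It measured 7.10, 7.23, 7.20 and 6.94 in SHS males, against 7.85, 7.50, 7.78 and 7.71 in air males (-0.59 ± 0.08, adjusted p = 0.000729), and its female difference was -0.09 (adjusted p = 0.662). The difference between these effects was 0.50 ± 0.12 (adjusted p = 0.383).

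Among the 47 further interferon-stimulated genes 1 rose in females, Epsti1 at 0.38 (2.13%, where 3.97% of all genes passed). In the average 8 rose and 1 fell (19.1%, where 13.5% of all genes passed). In males 4 rose and 2 fell (12.8%, where 6.63% of all genes passed). The membrane antiviral genes Ifitm1 and Ifitm3 were at 0.62 and 0.28, the secreted glycoprotein Lgals3bp at 0.49, Ly6e at 0.34, Oas1c at -0.27 and Samd9l at -0.22. The Ifitm1 and Lgals3bp calls were made in 16 of 16 fits with 1 array left out, those of Ly6e in 11, Oas1c in 10, Ifitm3 in 9, and Epsti1 and Samd9l in 4 each. Of 32 interferon gamma GTPase and antigen presentation genes, the immunoproteasome subunit Psmb10 rose in both sexes, at 0.26 in females and 0.24 in males (adjusted p = 0.0433 and 0.0462), and Gbp7 fell in males at -0.31. The Gbp7 call was made in 8 of 16 such fits, and the Psmb10 calls in 4 in females, 5 in males and 16 of 16 for the averaged rise of 0.25. Psmb8 rose in the average alone. Of the 32 genes 3.12% passed in females, 6.25% in males and 6.25% in the average. The medians of these lists were 0.04 and 0.14 in females and 0.06 and 0.04 in males.

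**Figure D5:**
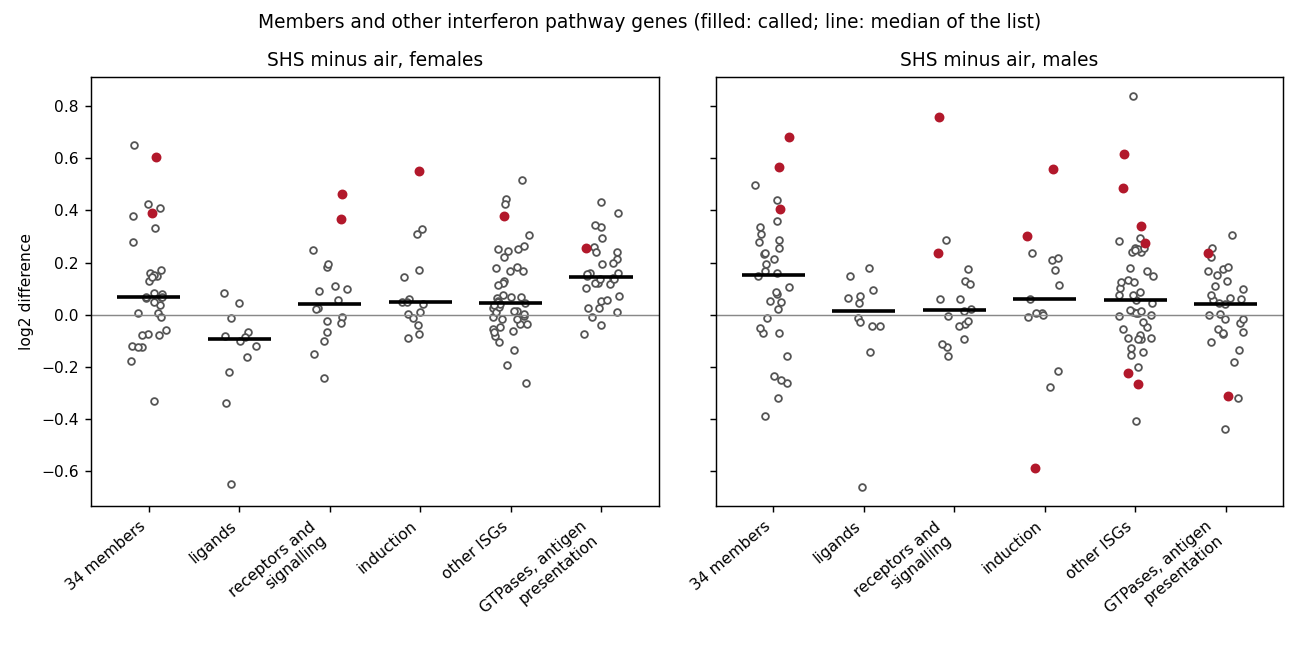
Log2 difference, SHS minus air, of every measured gene of the 34 members and of 5 further lists of the interferon pathway in females (left) and males (right), with filled points for genes that passed the test and a line at each list's median. List medians lie between -0.09 and 0.15. The highest filled points of the receptors and signalling list are Socs3 in both panels, and those of the induction list Sting1.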

How the data were processed

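Total RNA of 16 left lungs was hybridized as biotinylated cRNA, 1 lung per array and 4 mice per group, per the labels' protocols. The authors deposited 1 log2 value per probe set and array. The range of these values, 2.58 to 15.2, fits a base of 2. No source used here gives the summarisation or normalization method, and limma is named in the submitters' processing notes, with no version. Values were used as deposited.

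Of 45101 probe sets, 64 controls were left out. Group means were fitted for the other 45037 with limma 3.58.1 in R 4.3.3, with 12 residual and 5.56 prior degrees of freedom, two-sided, with Benjamini-Hochberg adjustment across the 45037 in each comparison. Errors are standard errors of the model. The steps were tested on simulated data. Figures were drawn with matplotlib 3.10.9.

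The members and the other gene lists were chosen with earlier results of these data known. Members described in full were those called in any comparison, the 3 largest differences each way in each sex, and a fixed set (Ifng, Socs1, Stat2, Irf1, Irf7, Irf9, Ifit1, Mx1, Rsad2, Cxcl9, Cxcl10). Other members and other pathway genes are named to complete their families. The number of arrays limited the precision.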

Additional observations from a re-analysis of the deposited data

Results flagged for a closer look

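Within the groups of 4, 1 lung stood apart from the other 3 in 12 of 136 member and group combinations, by a gap above Dixon's 95% critical share of the group's range, where chance gives about 5%. Among SHS males, replicate 3 was high for Oas1a at 10.05 (others 9.59 to 9.63), Cxcl10 at 9.11 (7.86 to 7.97) and Parp14 at 10.41 (10.08 to 10.12), and replicate 2 was low for Ifng at 4.98 (5.20 to 5.23). Among SHS females, replicate 2 was high for Ifi27l2a at 11.42 (10.84 to 10.91) and replicate 4 low for Cxcl9 at 8.22 (9.20 to 9.36). Among air females, replicate 1 was high for Ifit2 at 9.21 (9.04 to 9.05) and Cmpk2 at 8.32 (8.14 to 8.17), replicate 3 low for Ifi35 at 11.28 (11.42 to 11.44) and replicate 4 high for Socs1 at 7.38 (6.98 to 7.03). Among air males, replicate 4 was high for Irf9 at 9.25 (9.09 to 9.12) and low for Cmpk2 at 8.51 (8.73 to 8.77).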

How the results depend on the processing

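The number of members called depended on the arrays and on the threshold. With 1 array left out in turn it ran from 0 to 4 in females, 1 to 5 in males and 3 to 9 in the average, and stayed at 0 for the difference between the effects. It was 1 in females without air female replicate 2 or 3 or SHS female replicate 1 or 3, 0 without SHS female replicate 2 and 4 without SHS female replicate 4. It was 1 in males without air male replicate 3 or 4 or SHS male replicate 1 or 3, and 5 without SHS male replicate 4. It was 3 in the average without air female replicate 3, air male replicate 1 or 3, SHS female replicate 1 or 2, or SHS male replicate 2. The medians then ran from 0.04 to 0.11 in females, 0.08 to 0.18 in males and 0.06 to 0.12 in the average. Array weights gave 6 calls in females and 7 in males, a fit of the female arrays alone gave 0 in females, and dropping probe sets in the lowest 40% by mean gave 5 in males. Without both SHS arrays numbered 4, added after seeing the data, 6, 6 and 11 were called (9 higher and 2 lower in the average). At an adjusted p under 0.10, 7 were called in males and 10 in the average, and with a 1.5-fold minimum 1 in each comparison but the difference. Over all 45037 probe sets 1294 were called in females, 2332 in males and 4652 in the average, against 3985, 4398 and 7717 with array weights and 3954, 3315 and 7520 without both SHS arrays numbered 4. In females 448 were called with the female arrays alone. Of the female calls 1061 of 1294 were higher in SHS, and 861 of 1220 with quantile normalization. The causes were not tested.

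With the replicate number as a block 2, 3, 7 and 0 members were called in females, males, the average and the difference. Same-numbered arrays correlated in their deviations at -0.080 to 0.267 in females and 0.020 to 0.115 in males, and 2 of 4 SHS females and 1 of 4 SHS males correlated best with their own number, so the numbers were not taken to pair the mice. No called difference of a named member changed sign under any alternative run.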
